A study of Rattus norvegicus with 21 samples.

Results

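Cytosolic ribosomal protein genes encode the proteins of the ribosome that translates nuclear mRNAs. They were followed here in the dentate gyrus, the hippocampal subfield of granule neurons, of rats under chronic stress and antidepressants. Members were probe sets whose 1 annotated symbol was an Rpl or Rps symbol with a number, or Rplp0, Rplp1, Rplp2 or Rpsa. S6 kinases and symbols ending in l1, l2 or -ps were left out. The rule gave 71 of 14506 named genes, measured by 252 of 15310 probe sets with 1 symbol. Each gene was represented by its probe set of highest mean. Rps27, a small subunit protein gene with a mean log2 value of 6.80, missed the low signal filter of 7.17, and the other 70 were tested among 10804 genes. Of these 70, 39 encode large subunit proteins, 25 small subunit proteins and 3 the stalk. The remaining 3 match the rule but were set apart as not core subunit genes. Rps19bp1 encodes a protein that binds Rps19, Rpl17-ps16 is annotated as a pseudogene, and Rps4y2 is a paralog of Rps4x.

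Agomelatine, fluoxetine, imipramine and tianeptine rats, stressed rats without a drug, and untreated control rats were compared, with 3 animals in each group. All were wild type male Wistar rats aged 2 months. All but the control rats were exposed to unpredictable chronic mild stress over 6 weeks, and the drug groups received daily intraperitoneal injections in the last 2 weeks. Agomelatine was given at 40 mg/kg in hydroxyethylcellulose, fluoxetine at 10 mg/kg in water, and imipramine and tianeptine at 10 mg/kg in saline. Neither doses nor vehicles were therefore matched. Injections are described for the drug groups alone, so drug and injection cannot be told apart from these groups. The 3 control animals were each also run on a second array, labelled a technical replicate and called the repeat array here, which gives 21 Affymetrix arrays for 18 animals. The tissue is a bulk dissection, in which fewer cells of a type and less RNA per cell cannot be told apart.

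The ribosome is built from a small subunit, which reads the mRNA, and a large subunit, which joins amino acids and holds the exit tunnel. Its proteins are needed in near equal numbers. In mammals their mRNAs belong to the TOP class (terminal oligopyrimidine), which begin with a C followed by a run of pyrimidines. Their translation is controlled by the kinase complex mTORC1 through the RNA-binding protein LARP1, so the mRNA level does not show how much protein is made.

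Promoter windows of 59 of the 71 genes were found in the RefSeq table of assembly GRCr8, and the other 12 were not matched. An unbroken run of 8 or more C or T letters covered the annotated start in 31 of the 59 windows (52.5%), against 4.43% of all 33469 windows. With runs of 5 or more the shares were 61.0% and 12.0%. Both run lengths were chosen after the windows had been seen. A C stood at the annotated start in 55.9% of the ribosomal protein genes and 24.1% of all windows. The motif CGGAAG, the core bound by ETS family factors, occurred on either strand between 250 bases before and 50 bases after the start in 55.9%, against 16.6% of all windows. The palindromic CGCG element was present in 11.9% against 0.373%, and TATAA in 25.4% against 26.2%. CGGAAG on the opposite strand reads CTTCCG, which, like the first letters of the CGCG element, can lie partly within a C and T run. The windows below run from 40 bases before the start to 20 bases from it, 5′ to 3′ on the gene's strand, for the genes that changed with agomelatine and were matched. Capitals mark the C and T run over the start.
Rpl39: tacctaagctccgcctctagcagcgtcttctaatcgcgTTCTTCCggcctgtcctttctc
Rpl41: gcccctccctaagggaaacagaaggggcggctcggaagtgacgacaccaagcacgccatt
Rpl17: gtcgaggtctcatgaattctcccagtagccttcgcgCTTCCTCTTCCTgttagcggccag
Rps24: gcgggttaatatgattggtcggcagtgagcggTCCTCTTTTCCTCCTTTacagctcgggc
Rpl36a: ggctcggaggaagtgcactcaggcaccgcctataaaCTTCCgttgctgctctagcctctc
Rpl28: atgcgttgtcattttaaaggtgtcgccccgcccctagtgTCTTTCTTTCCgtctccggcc
Rplp2: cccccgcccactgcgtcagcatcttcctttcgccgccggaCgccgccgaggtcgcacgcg
Rps2: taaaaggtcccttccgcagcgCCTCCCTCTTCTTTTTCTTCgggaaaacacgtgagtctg
These stretches lie at chrX:121195877-121195936 (minus strand) for Rpl39, chr7:1563478-1563537 (minus) for Rpl41, chr18:70856236-70856295 (plus) for Rpl17 and chr16:96477-96536 (plus) for Rps24. Those of the other 4 lie at chrX:102059409-102059468 (plus) for Rpl36a, chr1:78083513-78083572 (minus) for Rpl28, chr1:205975881-205975940 (plus) for Rplp2 and chr10:14251808-14251867 (plus) for Rps2. The run was 7 bases long in Rpl39, 12 in Rpl17 and 17 in Rps24, which rose, and 5 in Rpl36a, 11 in Rpl28 and 20 in Rps2, which fell. Rpl41 has no such run over its annotated start, and in Rplp2 it is a single C.

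Some arrays stood apart. The position of each array along the difference between repeat and first control arrays was computed over 10734 genes outside the family. It was 0.28 to 0.49 in the agomelatine animals, 0.50 to 0.75 on the repeat control arrays and -0.38 to -0.29 on the first control arrays. The control arrays defined this position, so the gap between their repeat and first arrays was fixed in advance. The other stressed animals, with or without a drug, lay between -0.49 and 0.06. Scores of marker genes are means of log2 deviations from the gene means. The oligodendrocyte score was 0.40 to 0.78 in agomelatine animals, all 8 tested markers being higher than in stressed animals, and the granule neuron score was -0.27 to -0.20. Of the tested granule neuron markers only Neurod2 was above its level in stressed animals, at 10.96 against 10.87. All 6 astrocyte markers were below their level in stressed animals, 1 of them called. The CA pyramidal score was 0.39 and 0.43 in agomelatine replicates 1 and 2 and -0.08 in replicate 3, with 1 of 6 markers called higher, and stress replicate 3 had 0.37. The choroid plexus score was 3.24 in agomelatine replicate 1 and 0.85 in stress replicate 1. The part of these differences in the results below was not tested, except through the fits that carry the array position or the choroid plexus score. Prox1, Calb1 and C1ql2, which mark granule neurons, were measured in every group.

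With agomelatine, 9 of the 70 genes changed against stress alone, 5 higher and 4 lower. That is 12.9%, against 10.8% of all genes tested, so the family's share was near the background. The higher ones were Rpl39, Rpl41, Rpl17, Rps24 and the pseudogene Rpl17-ps16, and the lower ones were Rpl36a, Rpl28, Rplp2 and Rps2. The median difference over the 70 genes was -0.03 on the log2 scale and that of all genes was -0.03. At an unadjusted p under 0.05 there were 19 genes of the family, and 27% of all genes. Of the 70 genes, 12 were higher with agomelatine without overlap of the groups (9.36% of all genes were) and 9 were lower (15.9% of all genes were).

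Rpl39 encodes a very small protein in the wall of the exit tunnel. Its log2 values were 12.66, 12.55 and 12.51 in agomelatine animals, against 12.03, 11.87 and 11.78 in stressed animals. Every agomelatine animal lay above every stressed animal. The difference was 0.68 ± 0.06 (SE), or 1.60-fold (limma adjusted p = 5.01e-06).

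Rpl41, whose product is a short basic peptide between the subunits, stood at 12.71, 12.72 and 12.73 in agomelatine animals and at 12.38, 12.39 and 12.30 in stressed animals. The agomelatine animals were nearly equal and all higher. Rpl41 differed by 0.36 ± 0.07 (SE; limma adjusted p = 0.00284). Rpl17, another protein of the tunnel wall, had 12.34, 12.26 and 12.07 in agomelatine animals and 11.77, 12.02 and 11.94 in stressed animals. The groups again did not overlap, although agomelatine replicate 3 lay close to the highest stressed animal. The difference for Rpl17 was 0.31 ± 0.08 (limma adjusted p = 0.0165), and 0.26 without agomelatine replicate 1, where the adjusted p was 0.0658. Rps24, a small subunit protein gene mutated in human Diamond-Blackfan anaemia, rose by 0.29 ± 0.09 (limma adjusted p = 0.0414). Agomelatine replicate 1 was its highest animal at 9.98, beside 9.71 and 9.65 in the other agomelatine animals, against 9.37, 9.51 and 9.58 in stressed animals. The call for Rps24 was lost in 12 of 31 alternative fits, among them those without that animal, at a difference of 0.19, without any 1 stressed animal, with array weights and adjusted for choroid plexus score. Rpl17-ps16 was at 7.54, 7.64 and 7.64 in agomelatine animals and 7.42, 7.33 and 7.25 in stressed animals, near the low signal filter. It differed by 0.28 ± 0.08 (limma adjusted p = 0.0345). The call was lost in 8 of 30 alternative fits, among them those with array weights (adjusted p = 0.0925) and without stress replicate 2 or 3 or agomelatine replicate 2 or 3.

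Among the lower genes, Rpl36a, a large subunit protein near the site that releases tRNA, was at 11.77, 11.57 and 12.19 in agomelatine animals and at 12.24, 12.28 and 12.34 in stressed animals. The first 2 agomelatine replicates were far below the stressed animals and the third just below them. Rpl36a fell by 0.44 ± 0.10 (SE; limma adjusted p = 0.0119). Rpl28, a large subunit protein, had 12.84, 12.77 and 12.63 in agomelatine animals, against 13.02, 13.06 and 13.07 in stressed animals. All 3 agomelatine animals were below all stressed animals, with a difference of -0.31 ± 0.06 (limma adjusted p = 0.00298). Rplp2 encodes an acidic stalk protein that recruits the translation GTPases. It was at 12.16, 12.08 and 12.30 in agomelatine animals and at 12.44, 12.43 and 12.47 in stressed animals. The difference was -0.27 ± 0.08 (limma adjusted p = 0.0331). The call for Rplp2 was lost in 10 of 31 alternative fits, among them those without any 1 stressed animal, without agomelatine replicate 1 or 2, with the animal as a random block (adjusted p = 0.142) and with equal array medians (adjusted p = 0.0988). Rps2, a small subunit protein at the mRNA entry, lay at 12.36, 12.28 and 12.31 in agomelatine animals and at 12.54, 12.56 and 12.60 in stressed animals. The groups were tight and apart, with a difference of -0.25 and a limma adjusted p of 0.00251. With the array position as a covariate, all 4 lower genes, Rpl41 and Rpl17-ps16 lost their calls against stress, and Rpl39, Rpl17 and Rps24 did not. Among stressed animals that covariate nearly coincides with agomelatine, and the fit moved the median of the whole family upward to 0.37. It therefore cannot show which single genes hold.

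**Figure D1:**
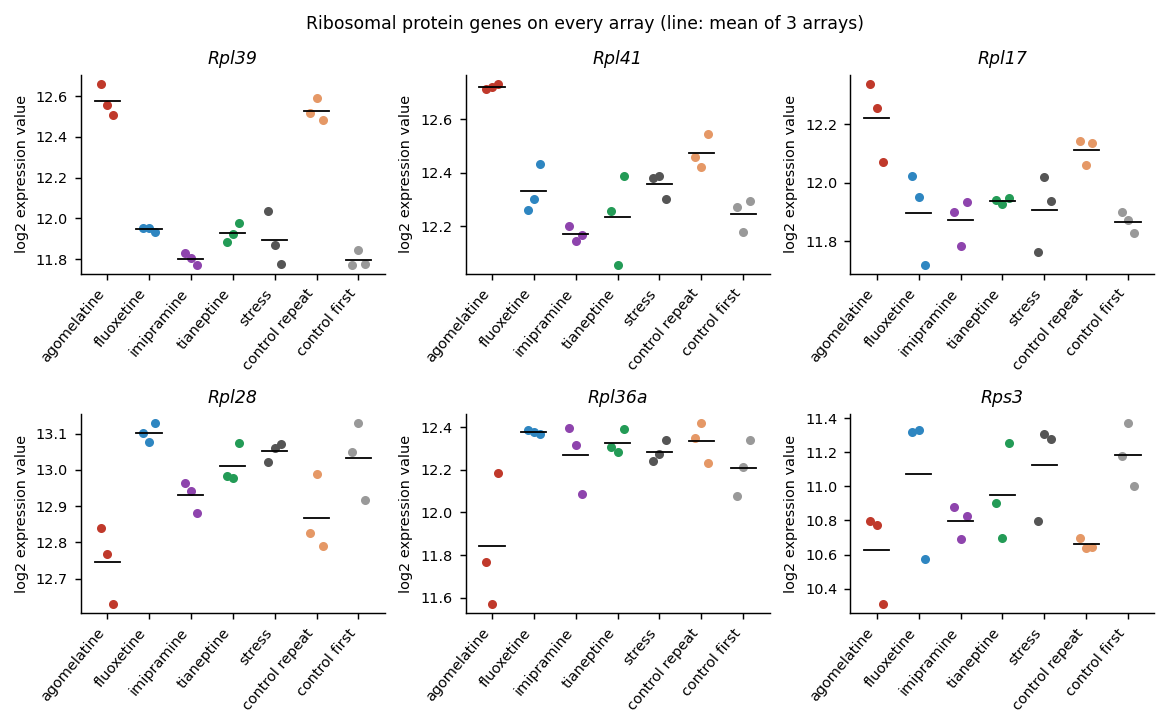
Log2 expression values of 6 ribosomal protein genes on all 21 arrays, by group, with control animals shown on their repeat and first arrays. Points are arrays and lines are means of 3 arrays, and each vertical axis has its own range and does not start at 0. Rpl39 is high on the agomelatine and the repeat control arrays, and Rpl36a is low on 2 agomelatine arrays alone.

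The largest negative difference in the family missed the threshold. Rps3, which lines the mRNA entry channel, was at 10.80, 10.77 and 10.31 in agomelatine animals and at 10.80, 11.31 and 11.28 in stressed animals. Stress replicate 1 lay among the agomelatine animals. The difference was -0.50 ± 0.18 (limma adjusted p = 0.0843). For Rpl11, a large subunit protein that also binds the p53 regulator Mdm2, the agomelatine animals had 11.31, 11.23 and 11.08 and the stressed animals 11.35, 11.72 and 11.69. The difference was -0.38 ± 0.16 (limma adjusted p = 0.135). Rps20, a protein of the small subunit head, had 12.28, 12.17 and 12.21 in agomelatine animals and 12.35, 12.71 and 12.71 in stressed animals. The groups did not overlap for Rpl11 or Rps20, but stress replicate 1 was close to the agomelatine animals in both.

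The repeat and first arrays of the control animals were compared within animals. Of the 70 genes, 31 differed (44.3%, against 11.9% of all genes), 15 higher and 16 lower on the repeat arrays. This count depends on the variance model. It was 3 without the trend of variance on expression level (0.333% of all genes). In a fit to the 3 animals' differences, added after seeing the data, it was 0 of all genes. At an unadjusted p under 0.05 the family's counts in these 3 fits were 41, 32 and 33 of 70, against 25.6%, 22% and 21.5% of all genes. All 3 animals were higher on the repeat array for 17 of the family's 70 genes, against 17.4% of all genes. They were lower for 28 of the 70, against 27.3% of all genes.

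Rpl39 was at 12.52, 12.59 and 12.48 on the repeat arrays of control animals 1, 2 and 3, against 11.77, 11.85 and 11.77 on their first arrays. The repeat arrays overlapped the agomelatine animals in Rpl39, and the first arrays overlapped the stressed animals. The difference between arrays of the same animals was 0.73 ± 0.04 (SE; limma adjusted p = 1.13e-11). Rps14, a protein of the small subunit platform, had 10.40, 10.34 and 10.32 on the repeat arrays and 10.06, 10.17 and 9.70 on the first arrays. All 3 animals were higher on the repeat array, most so animal 3. Rpl31, a large subunit protein gene, differed by 0.26 ± 0.04 in the same direction.

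On the other side, Rps3 was at 10.69, 10.64 and 10.65 on the repeat arrays and at 11.18, 11.37 and 11.00 on the first arrays, a difference of -0.52 ± 0.06. Rpl11 had 11.14, 11.21 and 10.93 on the repeat arrays and 11.73, 11.59 and 11.49 on the first arrays. Rps20 had 12.13, 12.12 and 12.13 on the repeat arrays and 12.65, 12.73 and 12.49 on the first arrays. All 3 genes were lower on each repeat array than on any first array. They were named because they were the lowest on the repeat arrays. They were also among the genes that were low, without reaching the threshold, in agomelatine animals.

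Across the 70 genes the agomelatine difference from stress and the repeat difference from the first array, which share no array, had a Pearson r of 0.80 and a Spearman rho of 0.77. Without Rpl39 the r was 0.76. Across all 10804 genes it was 0.48. The points are genes measured on the same arrays and are not independent. For the other drugs against stress the r across the 70 genes was 0.27 with fluoxetine, 0.06 with imipramine and 0.06 with tianeptine. Of the 9 genes that changed with agomelatine, 6 also differed between repeat and first arrays (66.7% of the 9 and 19.4% of the 31), all 6 in the same direction. The other 3 were Rpl17-ps16 and Rps2, which had the same sign, and Rpl36a, which had the opposite sign (0.12 on the repeat arrays). Of the 31 genes, 29 had the same sign in agomelatine against stress. Both overlap counts rest on the 31 genes called with the variance trend. Without the trend 3 were called, and in the fit to the animals' differences 0, so the overlap depends on the variance model. Neither overlap count was set beside its share over all genes, across which the r was 0.48.

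**Figure D2:**
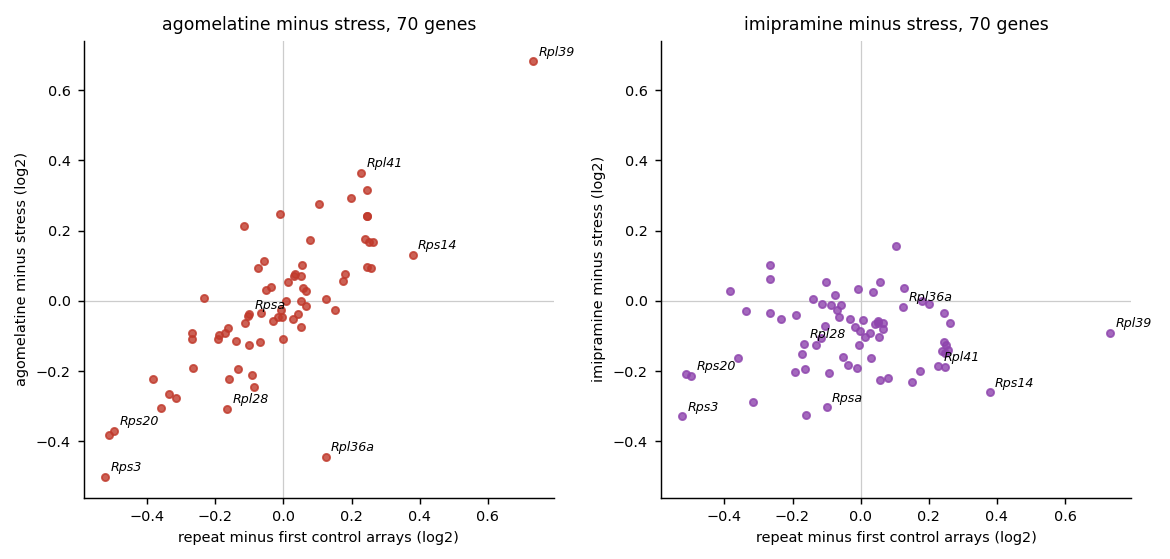
Each point is 1 of 70 ribosomal protein genes. The horizontal axes give the log2 difference of repeat minus first control arrays, and the vertical axes the log2 difference of agomelatine minus stress (left) and imipramine minus stress (right). The left cloud slopes upward with Rpl36a off it, and the right cloud has no slope and lies mostly below 0.

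Comparisons with control moved with the control arrays used. With the 2 arrays of each control animal averaged, 5 genes differed in agomelatine against control (7.14%, against 9.59% of all genes). Rpl39 and Rpl41 were higher, and Rpl36a, Rps2 and Rpl28 were lower. Against the first arrays alone there were 15, 9 higher and 6 lower (17.3% of all genes were called), and against the repeat arrays alone 3 (6.2% of all genes). Those 3 were Rpl41 at 0.25, Rpl36a at -0.49 and Rps2 at -0.18. Each of the 3 was called with all 3 choices of control arrays and against stress. The array position nearly coincides with agomelatine among stressed animals. It was 0.28 to 0.49 in agomelatine animals and 0.06 to 0.23 in control animals with both arrays averaged. When the array position was a covariate, all 3 kept their calls against control. Against stress none did (limma adjusted p = 0.206 for Rpl41, 0.34 for Rpl36a and 0.246 for Rps2). Rpl39 in agomelatine minus control was 0.78 with the first arrays, 0.41 with the mean and 0.05 with the repeat arrays (limma adjusted p = 6.81e-07, 0.000503 and 0.67). For Rpl41 the control animals had 12.46, 12.42 and 12.55 on repeat and 12.27, 12.18 and 12.30 on first arrays, all below the agomelatine animals. Rps2 was at 12.51, 12.56 and 12.44 on repeat and at 12.59, 12.62 and 12.56 on first control arrays, all above the agomelatine animals. For Rpl36a the third agomelatine animal, at 12.19, lay among the first control arrays, at 12.08, 12.21 and 12.34, and the other 2 lay below them. Without agomelatine replicate 2 the Rpl36a difference from control was -0.30 (limma adjusted p = 0.0536). The Rpl36a call against control was lost in 4 of 31 alternative fits, among them those without agomelatine replicate 1 and with the choroid plexus score. The Rpl28 call was lost in 7 of 31 and the Rpl39 call in 2 of 31, and Rpl41 and Rps2 kept theirs in all 31. Rps9, a small subunit protein gene, was 0.32 higher in agomelatine than in control animals (limma adjusted p = 0.111). It was called in 3 alternative fits, with the animal as a random block (adjusted p = 0.0478), with the array position (0.56, adjusted p = 0.00408) and without agomelatine replicate 2 (0.43, adjusted p = 0.038).

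**Figure D3:**
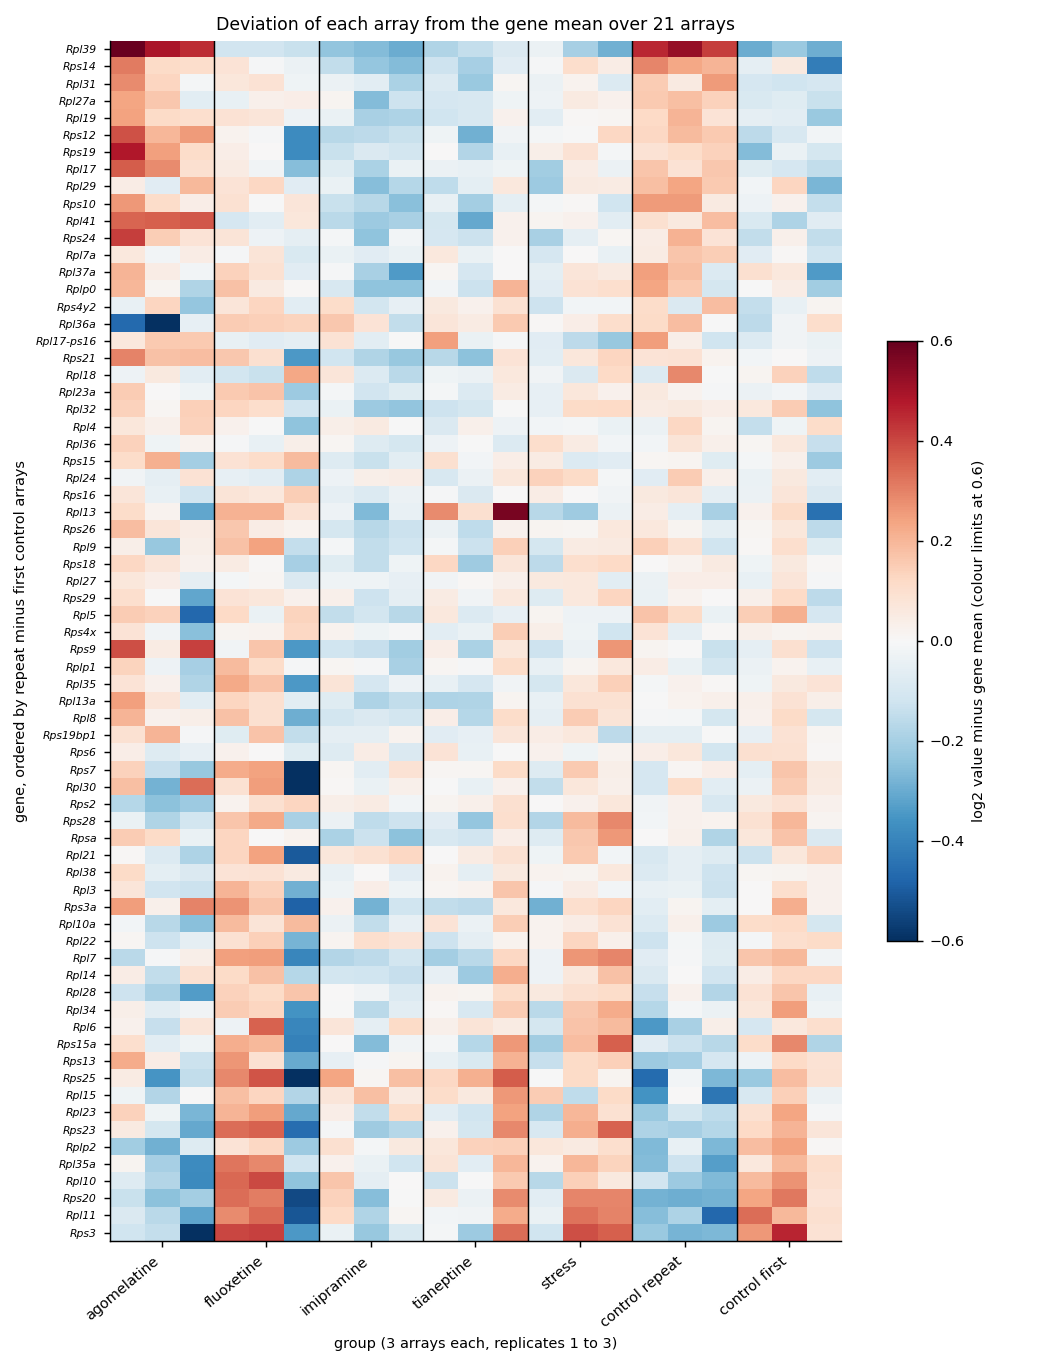
Deviation of each array's log2 value from the gene's mean over 21 arrays, for 70 ribosomal protein genes in rows and 21 arrays in columns, grouped by treatment and ordered by the repeat minus first difference. Red is above and blue below the mean, and colours stop at 0.6. Genes at the top are red on the agomelatine and repeat arrays, genes at the bottom are blue there, and fluoxetine replicate 3 is blue through much of the lower rows.

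With imipramine no gene of the family passed limma's threshold against stress, nor did any of all 10804 genes (0%). At an unadjusted p under 0.05 the family had 13 genes (18.6%), against 10% of all genes. The differences leaned downward. Of the 70 genes 59 were below 0 (84.3%), against 59.6% of all genes, and the median difference was -0.09, against -0.02. The imipramine animals lay wholly below the stressed animals for 18 genes (25.7%), against 12.6% of all genes. The small subunit had 23 of 25 genes below 0 with a median of -0.14, the large subunit 32 of 39 with a median of -0.08, and the stalk 3 of 3. These are descriptions of a list of genes that share the same 6 arrays. Cell type markers were also mostly below 0 in this comparison, without any call. All 6 CA pyramidal, 6 astrocyte, 5 meningeal and 3 oligodendrocyte precursor markers tested were, as were 5 of 6 of microglia, 6 of 8 of oligodendrocytes and 1 of 6 of granule neurons. Their part in the result was not tested.

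Rpsa, the small subunit protein also known as the laminin receptor, had 9.76, 9.82 and 9.70 in imipramine animals, against 9.87, 10.11 and 10.20 in stressed animals. The groups did not overlap, and stress replicate 1 was close to the imipramine animals. The difference was -0.30 ± 0.08 (limma adjusted p = 0.459), and with array weights it was called (-0.34, limma adjusted p = 0.0471). Rps14 was at 9.96, 9.88 and 9.85 in imipramine animals and at 10.11, 10.22 and 10.15 in stressed animals, a difference of -0.26 ± 0.07. Rpl7, a large subunit protein gene, was at 10.65, 10.67 and 10.72 in imipramine animals and at 10.80, 11.09 and 11.12 in stressed animals. Imipramine animals were below all stressed animals for both genes, without passing the threshold. Rplp0, the base of the stalk, was at 11.09, 10.95 and 10.95 in imipramine animals and at 11.12, 11.28 and 11.29 in stressed animals. Rpl32, a large subunit protein gene, had 12.54, 12.37 and 12.35 in imipramine animals and 12.54, 12.70 and 12.71 in stressed animals. In each of these 5 genes stress replicate 1 was the stressed animal nearest to the imipramine animals. Rps6, the substrate of the S6 kinases, had overlapping groups, with 12.09, 12.21 and 12.08 in imipramine animals and 12.19, 12.14 and 12.18 in stressed animals.

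Against control, imipramine animals had 1 changed gene in the family, Rpl39, at -0.36 ± 0.06 (1.43%, against 0.0185% of all genes; limma adjusted p = 0.0314). The imipramine values were 11.83, 11.80 and 11.77. They overlapped the first control arrays and lay below the repeat arrays, and the difference was 0.01 with the first arrays alone and -0.73 with the repeat arrays alone. Against the mean of control arrays 54 of 70 genes were below 0 (53.8% of all genes were) and the median was -0.07.

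**Figure D4:**
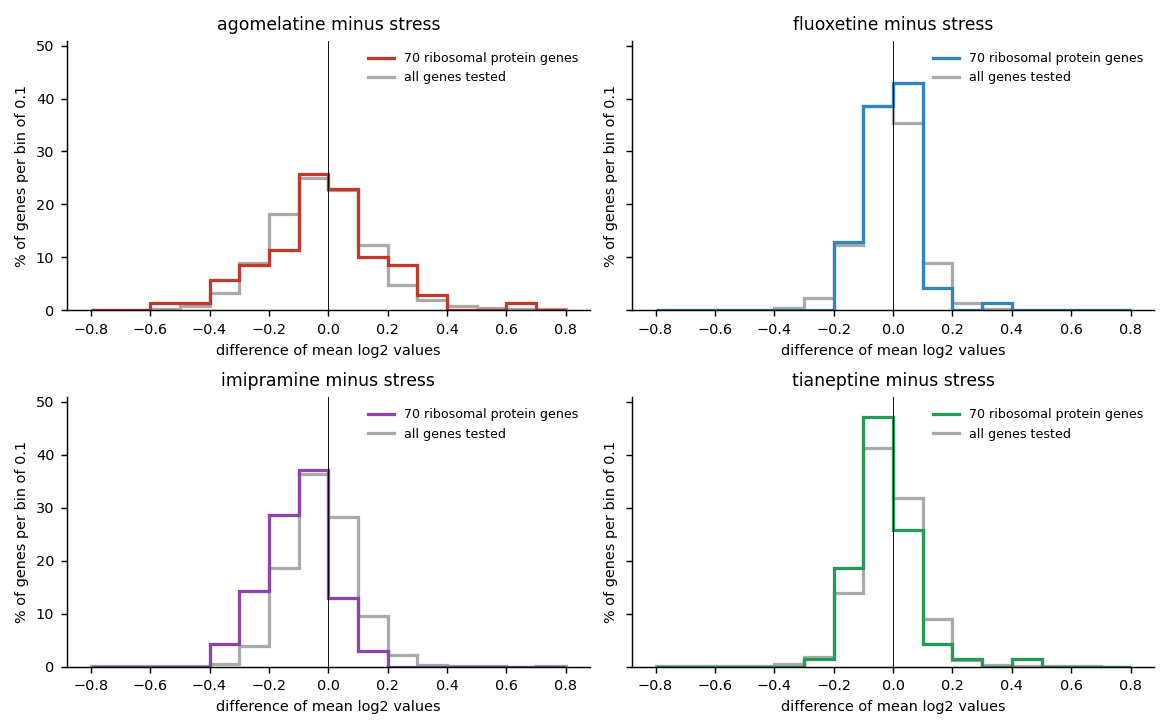
Share of genes, in percent, in bins of 0.1 of the log2 difference between each drug and stress, for 70 ribosomal protein genes (coloured) and all 10804 genes tested (grey). The coloured line of imipramine is shifted to the left of the grey line, with 59 of 70 genes below 0, and with agomelatine both lines are broad.

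With fluoxetine no gene of the family passed limma's threshold against stress or control, and 0% of all genes did. At an unadjusted p under 0.05 there were 2 genes against stress (5.01% of all genes were) and 6 against control (4.89% of all genes were). The median difference from stress was -0.01, and 36 of 70 genes were below 0. The 3 fluoxetine animals differed among themselves. The mean deviation of the 70 genes was 0.12 in replicates 1 and 2 and -0.16 in replicate 3. Replicate 3 lay below both other fluoxetine animals in 56 of 70 genes (80.0%), against 38.5% of all genes. It was the lowest of all 18 animals in 27 (38.6%), against 9.49% of all genes. It was also the lowest of the 18 in the score of translation factors and TOP mRNAs, at -0.10 against 0.09 and 0.05 in the other fluoxetine animals, and of ribosome biogenesis, at -0.06 against 0.02 and -0.01. The median SD among fluoxetine animals was 0.14 over the family and 0.09 over all genes. In the other 5 groups the family's SD ran from 0.06 to 0.11.

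Rps25, a small subunit protein that some viral RNAs need to start translation, had 10.61, 10.69 and 9.54 in fluoxetine animals and 10.31, 10.43 and 10.33 in stressed animals. Rps20 had 12.75, 12.72 and 11.87 in fluoxetine animals, and Rpl11 had 11.68, 11.74 and 10.88. In all 3 genes the first pair of animals was above the stressed mean and replicate 3 far below it. Other genes did not follow. Rpl28 was at 13.10, 13.08 and 13.13 and Rpl39 at 11.95, 11.95 and 11.93 in the same animals. The markers gave replicate 3 no extreme, with an oligodendrocyte score of -0.01 and a choroid plexus score of -0.25, and its array position was 0.06, against -0.26 and -0.19 in the other 2. When replicate 3 was left out, the gene counts moved in other comparisons, which share the estimate of spread. Agomelatine against stress then had 15 changed genes in the family instead of 9 (13.9% of all genes), and agomelatine against control 8 instead of 5 (11.9% of all genes).

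**Figure D5:**
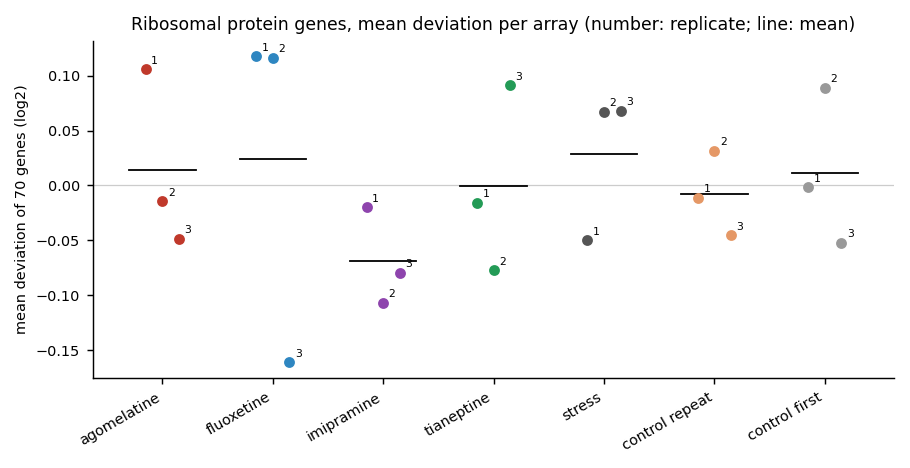
Mean log2 deviation of 70 ribosomal protein genes on each array, by group, with the replicate number beside each point and a line at the mean of 3 arrays. Fluoxetine replicate 3 is the lowest array at -0.16, and all 3 imipramine animals are below 0.

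With tianeptine no gene of the family passed limma's threshold against stress or control, and 0% of all genes did. At an unadjusted p under 0.05 there were 4 genes against stress (5.06% of all genes were) and 5 against control (4.04% of all genes were). The median difference from stress was -0.03, against -0.02 over all genes. Rpl13, a large subunit protein gene, stood out in size at 10.73, 10.54 and 11.02 in tianeptine animals, against 10.28, 10.23 and 10.41 in stressed animals. The groups did not overlap, and the difference was 0.45 ± 0.12 (limma adjusted p = 0.77). Its 6 other probe sets moved the other way, with differences of -0.13 to -0.09, so the size rests on 1 probe set.

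By limma, stress alone against control gave no changed gene in the family or among all genes (0%). At an unadjusted p under 0.05 there was 1, Rpl39, against 5.4% of all genes. Its stressed values of 12.03, 11.87 and 11.78 lay below the control animals' means by 0.27, and the sign depended on the control arrays, being 0.10 with the first arrays alone and -0.64 with the repeat arrays alone. The median difference of the family was 0.02, as it was over all genes, and 46 of 70 genes were above 0. Rps14, Rps2 and Rpl36a differed by less than their standard errors.

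Among all 6 groups 10 genes of the family differed by limma's F test (14.3%, against 6.76% of all genes), led by Rpl39, Rpl41, Rps2, Rpl28, Rps14 and Rpl36a. Among the 4 drug groups, whose doses differed, 13 did (18.6%, against 9.61% of all genes). Rps14 averaged 10.29 ± 0.12 in agomelatine, 10.13 ± 0.06 in fluoxetine, 9.90 ± 0.06 in imipramine and 9.98 ± 0.07 in tianeptine animals (SD, n = 3 each). Its F test adjusted p was 0.00795 among the drugs, although no single drug passed the threshold for Rps14 against stress. Rps10, a protein of the small subunit head, was 0.18 above stress with agomelatine and 0.14 below it with imipramine, on the log2 scale, neither passing the threshold. Its F test adjusted p among the drugs was 0.0118. Both genes also moved between arrays of the same control animals. Rps14 was 0.38 higher on the repeat than on the first arrays, and Rps10 averaged 12.095 on the repeat and 11.857 on the first arrays. The part of that array difference in these F tests was not tested. The F test counts moved with single animals. Without fluoxetine replicate 3 they were 20 and 26 (9.59% and 11.5% of all genes), and without agomelatine replicate 1 they were 4 and 7 (2.32% and 4.98% of all genes).

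Most of the family is measured by several probe sets, 53 of the 71 genes having more than 1 and Rpl21 as many as 21. Ribosomal protein genes have many processed pseudogenes in mammalian genomes, and signal from such copies cannot be separated here. Of the family's probe sets, 14 had values identical on every array to those of another. Among 52 tested genes with several probe sets, the probe sets differed in sign in 6 with agomelatine against stress, in 10 with imipramine, in 12 with fluoxetine and in 18 with tianeptine. For the genes called with agomelatine the probe sets had 1 sign. The 7 of Rpl39 ran from 0.67 to 0.76, the 9 of Rps2 from -0.30 to -0.17, the 3 of Rpl41 from 0.19 to 0.36, and the 2 of Rpl36a were -0.46 and -0.44. The second probe set of Rps3, with a mean log2 value of 7.92, gave 0.43 with imipramine against stress, where the one used gave -0.33.

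Other genes of translation were read from lists made with earlier results of these data known. Of 17 tested translation factors and further TOP mRNAs, 2 rose and none fell with agomelatine against stress. Npm1, a nucleolar chaperone of ribosome assembly, rose by 0.41 ± 0.10 (limma adjusted p = 0.0177), and Nap1l1, a histone chaperone with a TOP mRNA, by 0.19 ± 0.06 (limma adjusted p = 0.0444). Of 20 ribosome biogenesis genes 1 rose and 1 fell. They were Wdr12 at 0.24 and Bop1 at -0.30, partners in the complex that matures large subunit RNA. Of 68 mitochondrial ribosomal protein genes, whose products make the separate ribosome of that organelle, 4 rose and 6 fell. Mrps18a rose by 0.32 ± 0.07 and Mrps27 fell by 0.36 ± 0.07. Of 13 genes of the mTORC1 and LARP1 list none rose and 3 fell. These were the S6 kinase Rps6kb2 at -0.39, the translation repressor Eif4ebp2 at -0.35 and the mTORC1 inhibitor Ddit4 at -0.27. In the fit with the variance trend, 5 of these genes also differed, in the same direction, between repeat and first control arrays. They were Npm1 (0.33), Mrps18a (0.22), Mrps27 (-0.34), Rps6kb2 (-0.24) and Ddit4 (-0.22). The background in agomelatine against stress is 4.18% of all genes higher and 6.58% lower.

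In the other 3 drugs against stress and in stress against control, no gene of these 4 lists passed the threshold. With imipramine the median was -0.02 for translation factors and TOP mRNAs, 0.00 for ribosome biogenesis, -0.05 for mitochondrial ribosomal proteins and -0.11 for the mTORC1 and LARP1 list (11 of 13 below 0), beside -0.09 for the cytosolic family. Eef2, the elongation factor that moves the ribosome along the mRNA, was at -0.20 ± 0.08 and Rack1, a scaffold on the small subunit, at -0.17 ± 0.07 (limma adjusted p = 0.465 and 0.466). In the fit with the variance trend, 4 of 68 mitochondrial ribosomal protein genes were higher on the repeat than on the first control arrays. Another 9 were lower, where 11.9% of all genes differed. The 9 genes that the rule left out gave Rpl22l1, a paralog of Rpl22, at 0.50 ± 0.14 with agomelatine against stress (limma adjusted p = 0.0253), and the S6 kinase Rps6ka2 at -0.47 ± 0.07 (limma adjusted p = 0.00144).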

How the data were processed

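The authors deposited RMA log2 intensities summarised for each probe set. Per the submitters' processing notes they were computed in Affymetrix Expression Console 1.2. RMA corrects background, normalises arrays by quantiles and summarises probes, and it can compress differences at both ends of the scale. Per the labels' protocols, RNA came from columns with DNase digestion. Arrays give no read depth, and their number limits the precision. The array's genome build and the order in which arrays were run are not given in the sources used here.

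Of 29214 probe sets, 15310 had 1 symbol in the platform annotation, 323 had several and 13581 were unnamed here. Gene numbers of 70 of the 71 family members matched RefSeq GRCr8, from which promoter sequences were taken. The array medians of log2 values ran from 7.99 to 8.10. Genes were tested when their mean over 18 animals reached the 25th percentile, and both arrays of a control animal were averaged. With limma 3.58.1 in R 4.3.3, 1 mean per group was fitted (12 residual degrees of freedom, eBayes with trend). P-values were adjusted by Benjamini-Hochberg over 10804 genes, and a gene rose, fell or changed at an adjusted p under 0.05. Repeat arrays were compared with first arrays with the animal as a term. On simulated data for agomelatine against stress, run on 10804 genes, 16 of 50 genes changed by 0.25 on the log2 scale were called, 39 of 50 at 0.5 and 50 of 50 at 1.

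The members, lists, tests and alternatives were chosen with earlier results of these data known. The naming rule took, in each comparison with stress or control, up to 12 called members per direction, or the 3 with the largest difference where fewer than 3 were called. It added the 3 members highest and lowest between repeat and first arrays, 11 panel genes and up to 4 genes by smallest p in each further list. The set of 3 members kept apart from the core subunit genes was drawn up after their symbols were seen. Replicate numbers were not used to pair animals. The correlation exceeded 0.1 in 10 of 45 pairs of same-numbered animals and in 24 of 90 pairs of differently numbered ones. The medians were -0.02 and 0.01.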

Additional observations from a re-analysis of the deposited data

How the results depend on the processing

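For 66 pairs of a named gene and a comparison, 1904 values were recomputed under 14 alternatives with all animals and 18 fits without 1 animal. Of these, 1795 kept direction and side of the threshold, 74 lost the call, 12 gained it and 23 changed sign. Only pairs called in the main fit can lose a call, and most of the 66 were not called there. The 74 losses therefore do not have all 1904 values as their base, and the 1795 do not measure how stable the calls were. In agomelatine against stress the count of changed family genes was 9, and 6 to 13 under the alternatives with all animals. The shares of all genes were 10.8% in the main fit, and 6.52% and 11.4% in the fits with 6 and 13.

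With the first control arrays alone, imipramine against control had 0 changed genes (0% of all genes) and agomelatine against control 15 (17.3% of all genes). Rpl39 became positive against control in stress (0.10), fluoxetine (0.15), imipramine (0.0060) and tianeptine (0.13). In stress against control Rpl11 was -0.016, Rps20 -0.037, Rps3 -0.057 and Rps10 0.0073, and Rps14 was 0.0053 in tianeptine against control. With the repeat arrays alone the counts against control were 1 for stress, 3 for agomelatine, 1 for fluoxetine, 6 for imipramine and 2 for tianeptine. The shares of all genes were 1.17%, 6.2%, 0.731%, 1.73% and 0.555% in that order.

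With all 21 arrays and the animal as a random block, imipramine against control had 0 (0% of all genes). The F test among 6 groups then had 4 (4.5% of all genes) and that among drugs 6 (6.24%). Array weights gave 1 for imipramine against stress (0.241% of all genes) and 3 for imipramine against control (0.916%). For the F tests they gave 20 and 30 (6.91% and 10.4% of all genes). Under them Rpl30 was 0.10 in fluoxetine against control and Rpl11 0.022 in fluoxetine against stress. Imipramine against control had 0 without the variance trend and 0 with equal array medians, where 0% of all genes were called in each. The choroid plexus score as a covariate gave 4 and 8 for the F tests (3.28% and 5.44% of all genes). The cause was not tested in any of these.

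Among stressed animals the array position nearly coincides with agomelatine, and control animals with both arrays averaged lay at 0.06 to 0.23. As a covariate the array position turned the median of the family to 0.37 in agomelatine against stress. There were then 9 changed genes, all higher (1.07% of all genes changed). Against control it moved the median to 0.16 in agomelatine, -0.13 in fluoxetine, -0.22 in imipramine, -0.17 in tianeptine and -0.17 in stress. The median was -0.025 in imipramine against stress. Agomelatine against control then had 16 changed genes (11.9% of all genes) and imipramine against control 0 (0.00926% of all genes). Signs turned for Rpl11 (-0.25), Rps20 (-0.29) and Rps3 (-0.40) in stress against control. They also turned for Rpl35a (-0.0062) with fluoxetine, Rpl21 (-0.035) and Rps25 (-0.049) with imipramine, each against control, and Rps3 (0.014) in tianeptine against stress.

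The replicate block, with numbers not used as pairs in the main fit, gave 0 changed genes in imipramine against control (0% of all genes). It gave 8 in agomelatine against stress (9.88% of all genes). Leaving out 1 animal gave 6 to 15 for agomelatine against stress, 3 to 8 for agomelatine against control, 0 to 1 for imipramine against control, 4 to 20 and 7 to 26 for the F tests. The lowest of agomelatine against control, 3, came without control replicate 2. Without 1 animal, Rpl11 in fluoxetine against stress ran from -0.31 to 0.12, turning without fluoxetine replicate 3, as did Rpl30 in fluoxetine against control, at 0.15. Without stress replicate 3, Rpl39 was -0.0052 in fluoxetine against stress and -0.021 in tianeptine against stress, where the highest value was 0.11. Without stress replicate 2, Rpl15 was -0.032 in imipramine against stress.

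Repeat against first arrays had 31 changed genes, 3 without the variance trend, 0 in the fit to the animals' differences and 17 to 37 without 1 animal. Its median turned to 0.038 with equal array medians. With 3 animals a group, most simulated differences of 0.25 on the log2 scale were not called, so differences of that size may be missed.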
